A study of Drosophila melanogaster with 4 samples.

Results

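The chemosensory receptor genes of Drosophila melanogaster encode the odorant (Or), gustatory (Gr) and ionotropic (Ir) receptors with which sensory neurons detect smells, tastes, temperature and humidity. They were chosen as the protein-coding genes whose symbol in the Ensembl annotation is Or, Gr or Ir followed by digits and a letter, without use of any measured value. This gave 179 receptor genes, 59 Or, 60 Gr and 60 Ir, of the 13945 protein-coding genes on the main chromosome arms, and left 13766 other genes. H3K4me3, histone H3 trimethylated at lysine 4, was profiled in ovaries by chromatin immunoprecipitation and sequencing, with 2 libraries for each of 2 groups. In the lid KD group (MTD-Gal4>shRNA lid), the maternal triple driver MTD-Gal4 expressed a short hairpin RNA against lid, which encodes the H3K4me3 demethylase Lid/KDM5. In the control group (MTD-Gal4>+) the females carried the same driver and no hairpin. The driver acts in germ cells, so the somatic follicle cells that surround them in the dissected tissue did not express the hairpin. Each library pooled many ovary pairs, and the labels give the females' age both as 3 days and, for virgins, as 0 to 1 day.

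H3K4me3 is deposited around the start sites of genes that are being transcribed, and a start site without it is usually inactive in that tissue. Receptor genes are known for the opposite of broad use: each is switched on in a small class of sensory neurons, where odorant receptors work with the co-receptor Orco and ionotropic receptors with co-receptors of their own family. The gene set thus asks how often peaks were called in the ovary at genes known for their use in sensory neurons. A receptor gene was counted when a peak overlapped 500 bp on either side of one of its annotated transcript starts. Its peak was called its own when no start of a gene outside the set, of any kind, lay within the peak, and shared otherwise.

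The peak lists differed in length, and one library stood apart. They held 12832 and 13501 peaks in lid KD libraries 1 and 2, and 12087 and 25302 peaks in control libraries 1 and 2. Read totals are not in peak lists, so depth was read from the fragments per base that the peak caller used as background, which were 55.5 and 56.6 in lid KD and 60.1 and 48.4 in the controls. The longest list thus came from control 2, the library with the lowest background. The lid KD libraries differed from each other by 0.994 counting errors over 8865 regions called in every library, against 2.26 for the control pair and 2.88 to 4.0 for pairs across the groups. They differed by less than the sampling noise and were counted as 1 sample. At lid itself (annotated as Kdm5) the start-site peak had a fold enrichment of 6.43 and 6.28 in lid KD, against 5.96 and 6.84 in the controls, and peaks do not show whether the transcript was depleted. Of 6 genes that mark female germ cells, 5 had a start-site peak in all 4 libraries, as had 5 of 6 follicle cell markers. The germ cell marker vas was the exception and had none in any library, although its transcript is a defining one for this tissue. Not all marker peaks were strong. At bam the fold enrichment was 2.37 and 2.34 in lid KD, against 1.35 and 2.07 in the controls. The weakest peak callable at the genome's background in control 1 had 1.34. The germ cell markers nanos, osk, orb and gnu had at least 4.15 in each library. Low values among follicle cell markers are given below. Neuron markers had a peak at 2 and 2 of 5 genes in lid KD and at 1 and 3 in the controls, of which elav alone was marked in all 4. Peaks that held no start of another gene were found at 1 and 1 neuron markers in lid KD and at 1 and 2 in the controls. Muscle markers had a peak at 1 of 4 genes in each library, haemocyte and fat body markers at 0 and 0 of 4 genes in lid KD and at 0 and 2 in the controls, and testis markers at 0 and 0 of 4 in lid KD and at 0 and 1 in the controls.

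Few receptor genes carried H3K4me3 at a start site. A peak was found at 11 receptor genes (6.15%) in lid KD 1, where 51.5% of all protein-coding genes had one, and at 12 (6.7%) in lid KD 2, against 52.4% of all. In control 1 it was found at 13 receptor genes (7.26%), against 52.9% of all, and in control 2 at 34 (19.0%), against 62%. The 4 differences from the other protein-coding genes averaged -45.5 percentage points and lay between -46.3 and -43.5. In no library did the share of receptor genes come near the background. No peak was found in any library at 142 receptor genes (79.3%), namely 45 Or, 49 Gr and 48 Ir genes, against 34.5% of all genes. Peaks in all 4 libraries were found at 9 receptor genes (5.03%), 2 Or, 4 Gr and 3 Ir genes, against 48.3% of all genes. Each family was represented in both counts.

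**Figure D1:**
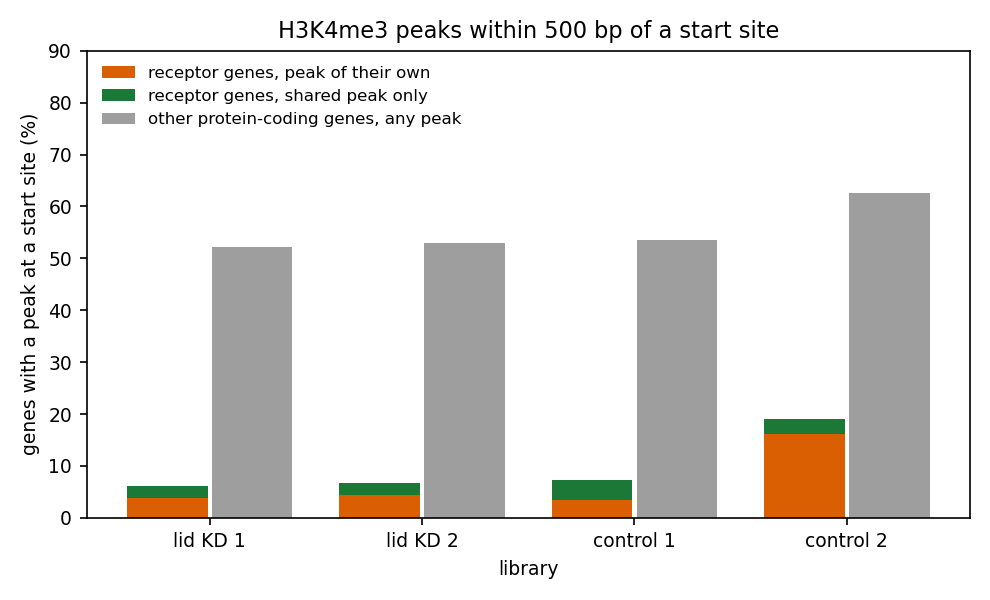
Percent of genes with an H3K4me3 peak within 500 bp of a start site (vertical axis) in each library (horizontal axis), with the receptor genes' bar left of that for other protein-coding genes. Orange is the share of receptor genes with a peak of their own, green the share with a shared peak only, and the receptor bars reach 6.15% and 6.7% in lid KD, 7.26% in control 1 and 19.0% in control 2, below all grey bars.

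Between the groups, the number of receptor genes with a start-site peak was 11 and 12 in lid KD libraries, against 13 and 34 in control libraries. The groups did not overlap in these counts, nor in the shares over all genes given above. They touched at 6 genes with a window of 250 bp and at 12 with a q-value of 0.01. With a window of 1000 bp they overlapped, at 17 and 19 receptor genes in lid KD and 17 and 55 in the controls. With the window of 500 bp the mean was 11.5 in lid KD and 23.5 ± 14.8 (SD, n = 2) in the controls. The difference was -12. An exact two-sided permutation test over the 4 libraries gave p = 0.33, the smallest p this design allows. With the lid KD pair as 1 sample the exact permutation p was 0.667, the smallest that 3 samples allow. The difference rested on control 2 and was -1.5 without it. In lists of equal length it was -3.5, with 10 and 11 receptor genes in lid KD and 13 and 15 in the controls. A difference between the groups beyond the spread of the controls was not detectable.

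Peaks of their own were fewer. They were found at 7 receptor genes (3.91%) in lid KD 1, against 46.1% of all genes, and at 8 (4.47%) in lid KD 2, against 46.6%. In control 1 they were found at 6 (3.35%), against 44.5% of all genes, and in control 2 at 29 (16.2%), against 56.4%. The lid KD values lay between those of the controls, whose mean was 17.5 ± 16.3 (SD, n = 2), and the difference of -10 gave an exact permutation p of 1, also with the lid KD pair as 1 sample. Without control 2 the difference turned to 1.5. A peak of their own in all 4 libraries was found at 3 receptor genes, Gr32a, Or45b and Or7a, against 38.7% of all genes. Where an enrichment of at least 2 was required, each of the 3 had one in 25% of libraries, that is in control 2 alone.

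Peaks of the receptor genes' own were weak, and shared peaks were strong. Fold enrichment, the coverage at a peak's summit over the local background, had a median of 1.98 and 1.9 at own peaks in lid KD and of 1.6 and 2.03 in the controls. At shared peaks the medians were 9.15 and 8.83 in lid KD, and 5.54 and 6.09 in the controls. The shared peaks were not of the same genes in each library, with 4 and 4 in lid KD and 7 and 5 in the controls. Control 1 added Gr61a, Ir76a and Gr94a, at 4.15, 2.74 and 2.96, and control 2 added Gr61a, at 5.29. The shared medians, and the log2 values below, thus cannot be compared between the groups. Medians for start-site peaks of other genes lay between those of own and shared peaks, at 4.96 and 4.82 in lid KD and 4.41 and 4.08 in the controls. Low values were not particular to receptor genes. Among follicle cell markers, slbo had 1.89 and 1.96 in lid KD, against 1.75 and 2.65 in the controls. Yp1 had 1.54 and 1.8, against 1.64 and 2.73, and Sox14 had 1.56 and 1.48, against 1.6 and 2.06. Yp2 had no peak in lid KD 1 and 2.01 in lid KD 2, against 1.98 and 2.45. Fas3, at 2.29 to 2.82, and tj, at 4.58 to 5.36, were higher. On the log2 scale, own peaks were lower than shared ones by a mean of -1.95 over the libraries, with library values of -2.21 and -2.22 in lid KD and -1.79 and -1.59 in the controls. The weakest peak that could be called at the genome's background had an enrichment of 1.36 and 1.35 in lid KD and of 1.34 and 1.34 in the controls. Own peaks began just above this limit, at 1.47 and 1.53 in lid KD and at 1.41 and 1.41 in the controls. Their median percentile rank among all peaks of the list, where 100 is the strongest, was 32.9 and 31.8 in lid KD and 19.6 and 40.8 in the controls. The shared peaks ranked at 90.5 and 90.7 in lid KD and at 79.4 and 87.7 in the controls.

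**Figure D2:**
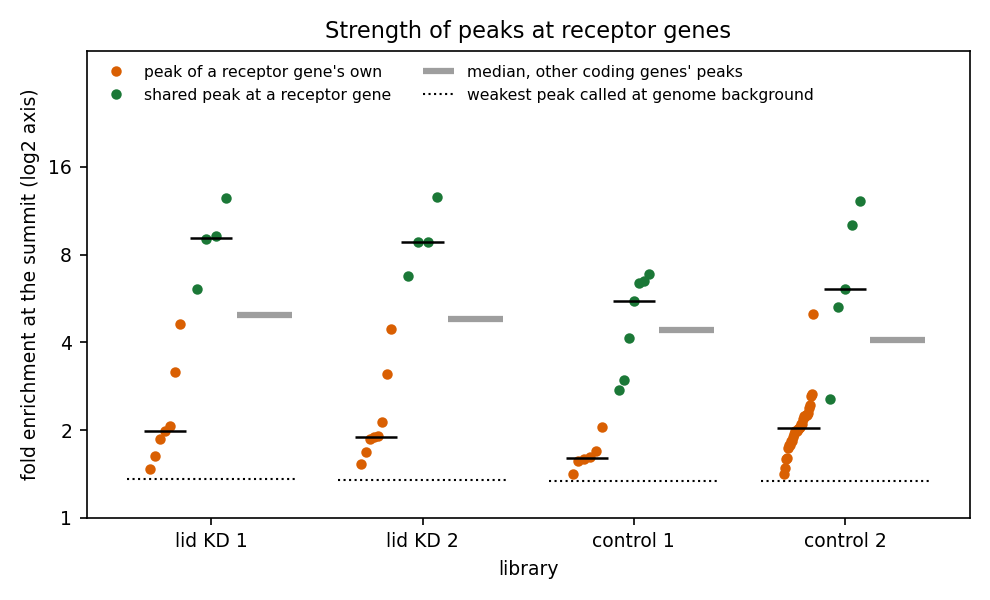
Fold enrichment at the summit (vertical log2 axis) of every start-site peak of a receptor gene, by library, with own peaks in orange, shared peaks in green and black bars at their medians. The grey bars, the medians of other coding genes' peaks, lie between 4.08 and 4.96, above the median of own peaks and below that of shared peaks in each library, and the dotted line is the weakest peak callable at the genome's background.

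The position of the summits is in part fixed by the definition of the classes. A shared peak holds an outside start and need only reach to within 500 bp of the receptor gene's, and an own peak holds no outside start. The counts below are thus a description and not a separate line of evidence for the division. At shared peaks the summit was nearer to the receptor gene's start than to the outside start at 0 of 4 and 0 of 4 peaks in lid KD, and at 0 of 7 and 1 of 5 in the controls. At own peaks it was nearer to the receptor gene's start at 5 of 7 and 6 of 8 peaks in lid KD, and at 5 of 6 and 28 of 29 in the controls. The own peaks of control 2 lay downstream of the start, within an exon of the receptor gene, in 21 of 29 cases.

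Gr32a encodes a gustatory receptor of bitter-sensing neurons that also takes part in the recognition of pheromones by males (chromosome 2L, 11114014-11115823, plus strand, dm6). Its fold enrichment was 1.98 and 1.89 in lid KD, against 1.57 and 1.98 in the controls, from summit pileups of 111 and 109 fragments in lid KD and 108 and 108 in the controls. The groups overlapped. These summits lay upstream, 441 and 418 bp from the start in lid KD and 395 and 474 bp in the controls, outside the gene. Control 2 had a further peak of 2.23 in the gene's exon, 256 bp downstream of the start. The nearest start outside the set, that of Idua, was 953 bp away and had a peak in all 4 libraries. With a window of 250 bp, or with peaks within 500 bp of an outside start taken as shared, Gr32a had an own peak in 25% of libraries, the exonic one of control 2.

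Or45b, an odorant receptor gene known from the larval olfactory organ (chromosome 2R, 9559598-9561068, plus strand), had a fold enrichment of 1.63 and 1.91 in lid KD, against 1.69 and 2.61 in the controls. Its summit pileups were 91 and 109 in lid KD and 102 and 128 in the controls. All 4 summits lay in its exon, 240 to 263 bp downstream of the start. The nearest outside start, of Alp6, was 2040 bp away and had no peak in any library. The highest value was that of control 2, and the groups overlapped.

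Or7a, which encodes an antennal receptor for leaf and fruit volatiles (chromosome X, 8164266-8165708, minus strand), had a fold enrichment of 1.87 and 1.87 in lid KD, against 1.59 and 2.39 in the controls. The pileups were 105 and 107 in lid KD and 96 and 149 in the controls, so the lid KD values again lay between those of the controls. Its peaks were of unequal length, the longest being X, 8164618-8165687, in control 2 and the shortest X, 8165335-8165617, in control 1. The outside start nearest to it, of CG10761, was 2916 bp away and had no peak in any library.

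The remaining receptor genes marked in all 4 libraries lay beside the start of another gene. Gr61a, a member of the sugar receptor clade (chromosome 3L, 841451-843701, plus strand), starts 91 bp from JMJD5, a gene for a jumonji domain protein. Its fold enrichment was 4.64 and 4.43 in lid KD, against 4.15 and 5.29 in the controls, with pileups of 1321 and 1255 in lid KD and 889 and 1127 in the controls. The summits were nearer to JMJD5, at 173 and 173 bp from its start in lid KD and 142 and 163 bp in the controls, than to Gr61a, at 264 and 264 bp in lid KD and 233 and 254 bp in the controls. The lid KD peaks ended at 841342 and 841341, short of the start of JMJD5, and the control peaks ended at 841495 and 841452, past it. By the definition used, the peak was Gr61a's own in lid KD and shared in the controls, although the peaks occupy the same place.

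Ir76a encodes an antennal ionotropic receptor for amines (chromosome 3L, 19799278-19803427, plus strand) and has 3 annotated starts, of which one lies 39 bp from the start of CG14102. Fold enrichment was 3.17 and 3.11 in lid KD, against 2.74 and 5.0 in the controls, with the summit in an intron of Ir76a in each library. Only in control 1 did the peak extend over the start of CG14102. All 4 summits were nearer to that start than to one of Ir76a, and no own peak was left when the gene's 5′ end alone was used. By the mean percentile rank of own peaks, with libraries without one taken as 0, Ir76a came first at 47.9, ahead of Or45b at 35.1, Or7a at 34.5, Gr32a at 33.7 and Gr61a at 33.4.

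Of the 9 receptor genes with a peak in all 4 libraries (5.03%, against 48.3% of all genes), 4 had a shared peak in every library. The share of all genes with a shared peak in every library was not counted. Ir60b, expressed in pharyngeal taste neurons, starts 365 bp from Letm1, a gene for a mitochondrial inner membrane protein. Its peak had a fold enrichment of 12.5 and 12.6 in lid KD, against 6.48 and 12.2 in the controls, with all summits 391 to 396 bp from the start of Letm1 and 1079 to 1084 bp from that of Ir60b. Gr97a, 445 bp from CG5521, had an enrichment of 9.26 and 8.83 in lid KD, against 6.85 and 10.1 in the controls. Ir60e, 322 bp from CG13585, had 6.08 and 6.75 in lid KD, against 5.54 and 6.09 in the controls. In these 3 genes control 1 was the lowest library. Gr63a, a subunit of the carbon dioxide receptor, starts 297 bp from Lamtor4, a gene of the Ragulator complex. Its enrichment was 9.04 and 8.83 in lid KD, against 6.38 and 2.55 in the controls. The peak of control 2 there was a separate weak one (3L, 3896489-3896922) with its summit 104 bp upstream of Gr63a, the one summit of a shared peak that lay nearer to a receptor gene. Gr94a, which lies within p53, had a shared peak in control 1 alone, at 2.96.

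**Figure D3:**
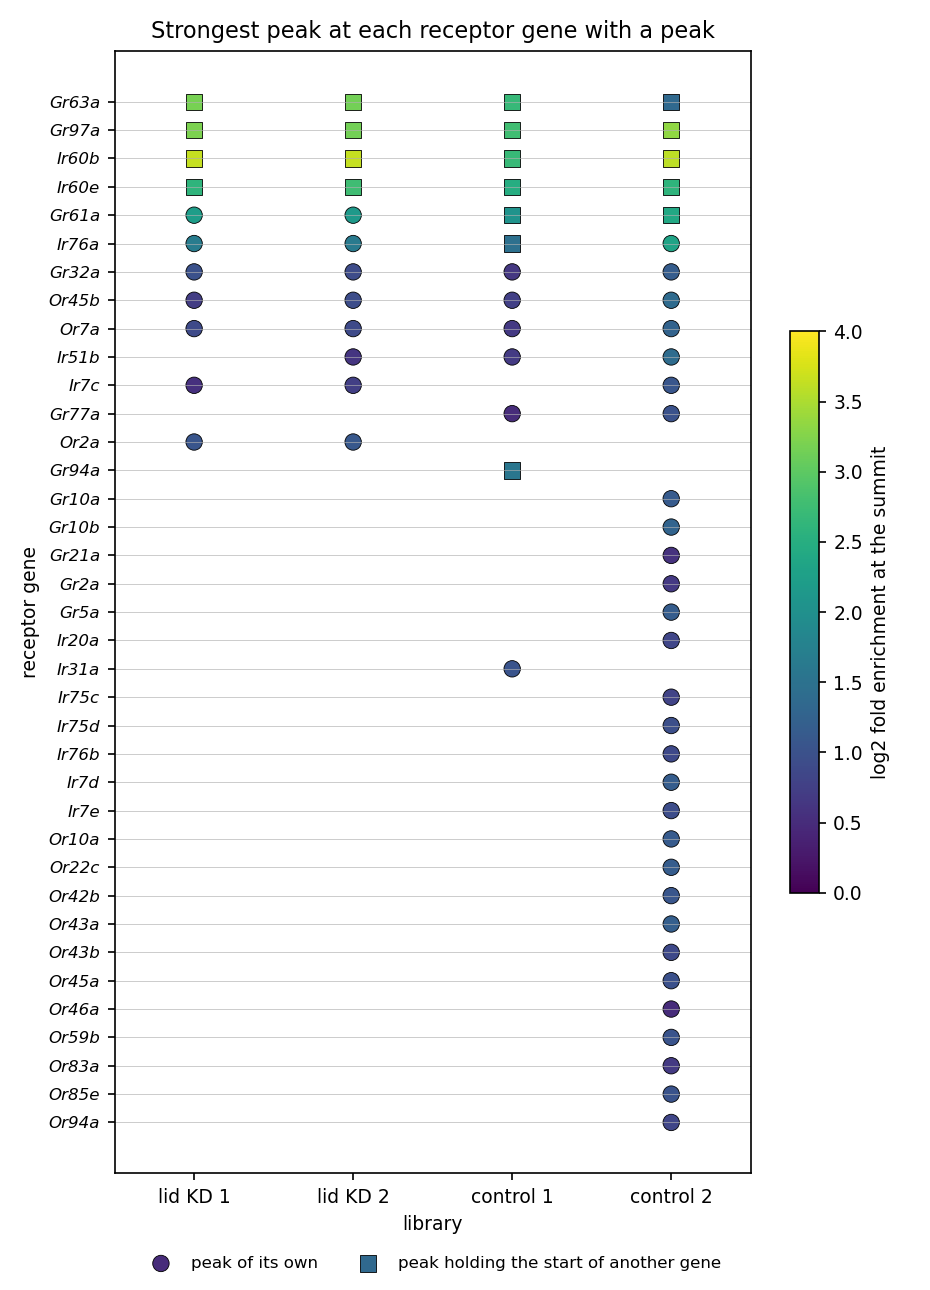
Receptor genes with a start-site peak (rows) by library (columns, lid KD left of control), coloured by the log2 fold enrichment of the strongest peak, with circles for own peaks and squares for peaks that hold the start of a gene outside the set. The upper 9 genes have a peak in all 4 libraries and include all 4 genes with shared peaks in every library, and 22 genes have one in control 2 alone.

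For comparison of the sequences at these genes, the bases just before the start are printed 5′ to 3′ on the strand of the gene, from the RefSeq copy of the dm6 genome, as far as they overlap no annotated exon. Gr32a and Or7a are shown as genes with a peak in all 4 libraries, Or2a as the gene with one in both lid KD libraries alone, Or67d, which encodes the receptor for the male pheromone cVA, as one without any, and crn, a splicing factor gene, as the marked neighbour of Or2a. Capitals mark TATAAA, the letters of the TATA box, on either strand, and TATCGATA, the DNA replication-related element (DRE).
Gr32a, chr2L:11113764-11114013, plus strand: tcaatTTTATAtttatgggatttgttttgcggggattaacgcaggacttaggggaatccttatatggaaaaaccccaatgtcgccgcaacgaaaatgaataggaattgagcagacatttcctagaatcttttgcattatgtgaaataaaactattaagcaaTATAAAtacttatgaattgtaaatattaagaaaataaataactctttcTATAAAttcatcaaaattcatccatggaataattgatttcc
Or7a, chrX:8165709-8165832, minus strand: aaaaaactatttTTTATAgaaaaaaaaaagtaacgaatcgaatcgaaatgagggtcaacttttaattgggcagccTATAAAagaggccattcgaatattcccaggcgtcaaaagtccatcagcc
Or2a, chrX:2246042-2246230, plus strand: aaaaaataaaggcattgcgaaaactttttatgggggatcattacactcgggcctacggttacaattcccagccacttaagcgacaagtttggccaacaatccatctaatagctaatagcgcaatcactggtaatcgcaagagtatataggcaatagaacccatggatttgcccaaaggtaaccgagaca
Or67d, chr3L:10272954-10273203, plus strand: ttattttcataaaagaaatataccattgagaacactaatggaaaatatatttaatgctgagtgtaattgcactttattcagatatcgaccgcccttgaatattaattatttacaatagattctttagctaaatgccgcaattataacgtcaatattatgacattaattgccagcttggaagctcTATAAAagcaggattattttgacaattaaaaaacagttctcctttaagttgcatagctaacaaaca
crn, chrX:2249984-2250144, minus strand: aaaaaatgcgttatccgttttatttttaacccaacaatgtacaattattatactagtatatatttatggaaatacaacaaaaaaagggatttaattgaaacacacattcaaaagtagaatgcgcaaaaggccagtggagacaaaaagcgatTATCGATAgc
The letters TATAAA lay 89 and 41 bases before the start of Gr32a, 49 bases before that of Or7a and 66 bases before that of Or67d on the gene's strand, and, on the other strand, 245 bases before Gr32a and 112 before Or7a. No motif searched was found before Or2a. The DRE lay 10 bases before the start of crn.

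These motifs were then counted over all receptor genes, on both strands of the 250 bases before the gene's start, exons included. The DRE and Motif 1, here searched as GGTCACAC, are elements of broadly used promoters. The DRE was found at 0 of 179 receptor genes, against 8.0% of all protein-coding genes, 14.6% of other genes with a peak in all 4 libraries and 1.71% of other genes with none. Motif 1 was also found at 0 receptor genes, against 4.21% of all genes, 8.07% of other genes with a peak in all 4 libraries and 0.385% of those with none. TATAAA was found at 88 receptor genes (49.2%), against 43.0% of all genes, 42.3% of other genes with a peak in all 4 libraries and 44.7% of those with none. On the gene's strand and 25 to 40 bases before the start, where a TATA box acts, it was found at 5 receptor genes (2.79%), against 7.06% of all genes, 2.02% of other genes with a peak in all 4 libraries and 12.1% of those with no peak. The letters of the DRE and of the TATA box can overlap at their ends. A match is a description of the letters in this window.

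Receptor genes marked in one group alone were few. Or2a, an odorant receptor gene of the adult antenna (chromosome X, 2246231-2247567, plus strand), had a peak in both lid KD libraries and in neither control, the 1 receptor gene with this pattern (0.559%), against 0.179% of all genes. The peaks lay at X, 2246264-2246777, and X, 2246252-2246789, over the first exon, with summits 181 and 164 bp downstream of the start. Fold enrichment was 2.07 and 2.13, from pileups of 610 and 615 fragments, the largest of an own peak after Gr61a in these libraries. The peak caller's local background at these summits exceeded the genome's by a factor of 5.32 and 5.09, so the enrichment was measured over a raised surrounding. In the controls the nearest peaks were 2878 and 2818 bp from the start, and crn, the nearest outside start at 3752 bp, was marked in all 4 libraries. The controls held 1030 and 1463 peaks whose local background was alike to within 20%, and only 1% of these had an enrichment below 1.3 and 1.37. The lists do not give the local background of the controls at Or2a, and the part of the limit for a call in the missing peaks was not tested. For peaks without another start, 2 receptor genes had this pattern, against 0.753% of all genes: Or2a, and Gr61a for the reason given above.

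The opposite pattern, both controls and neither lid KD library, was found at Gr77a, a gustatory receptor gene within CG13252 on chromosome 3L (20737569-20739430, minus strand). This 1 gene (0.559%) compares with 0.81% of all genes for any start-site peak and with 0.904% for peaks without another start. Its fold enrichment in the controls was 1.41 and 2.01, from pileups of 85 and 98 fragments. The value in control 1 ranked at 2.3 of 100 in its list, next to the limit for a call. Both shares in each direction rest on 1 or 2 genes, and with the lid KD libraries as 1 sample no test of a single gene can reach a small p.

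Ir7c and Ir51b had own peaks in 3 libraries, a pattern that was not counted over all genes. Ir7c, which takes part in the taste of high salt (chromosome X, 7874394-7876847), had an enrichment of 1.47 and 1.68 in lid KD, against no peak in control 1 and 2.09 in control 2. Ir51b, within the gene row on chromosome 2R, had no peak in lid KD 1 and 1.53 in lid KD 2, against 1.62 and 2.65 in the controls. Ir31a had one in control 1 alone, at 2.05 and a pileup of 433 over a local background of 210. Its summit lay outside the gene, 607 bp upstream of the start of Ir31a and 245 bp from that of CG17768. A start-site peak in control 1 alone, own or shared, was found at 2 receptor genes (1.12%), Ir31a and Gr94a, against 1.52% of all genes. No receptor gene had a peak in a single lid KD library alone, which was also rare over all genes. There it was 0.0645% for lid KD 1 and 0.115% for lid KD 2.

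A peak in control 2 alone was found at 22 receptor genes (12.3%), against 10% of all genes, a share near the background, and all 22 were own peaks. They comprised 11 Or, 5 Gr and 6 Ir genes. Gr10a and Or10a occupy the same span on chromosome X and shared 1 peak, at 2.19. The enrichment ran from 1.41 at Or46a to 2.43 at Gr10b. Taking only the genes without a peak in the other 3 libraries, control 2 added one at 22 of 164 receptor genes (13.4%) and at 1379 of 6051 other genes (22.8%). Without control 2, a start-site peak in any library was found at 15 receptor genes (8.38%), compared with 7715 other genes (56.0%).

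The genes marked in control 2 alone had a higher GC content around the start. Over the 1001 bp centred on the start, GC content had a median of 47.2% (40% to 53.9%) at these 22 genes and of 41.5% (30.3% to 52.0%) at the 142 without a peak. At the 10 genes with an own peak in another library the median was 44.0% (29.2% to 46.9%), and at the 5 genes with shared peaks only it was 43.5%. All receptor genes had a median of 42.2%, close to the 42.4% of other protein-coding genes. The part of base composition in the calls of control 2 was not tested. By chromosome, control 2 added a peak at 8 of 22 receptor genes on X (36.4%) and at 14 of 142 on the autosomes (9.86%), whereas for other genes these shares were 26.4% and 22.2%. The families differed in this, with 4 of 6 Gr genes on X and 1 of 48 on the autosomes, 3 of 10 and 3 of 44 Ir genes, and 1 of 6 and 10 of 50 Or genes. Members of one cluster are not independent, and 5 of these 8 X-linked genes, Gr10a, Gr10b, Or10a, Ir7d and Ir7e, lie in 2 clusters.

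**Figure D4:**
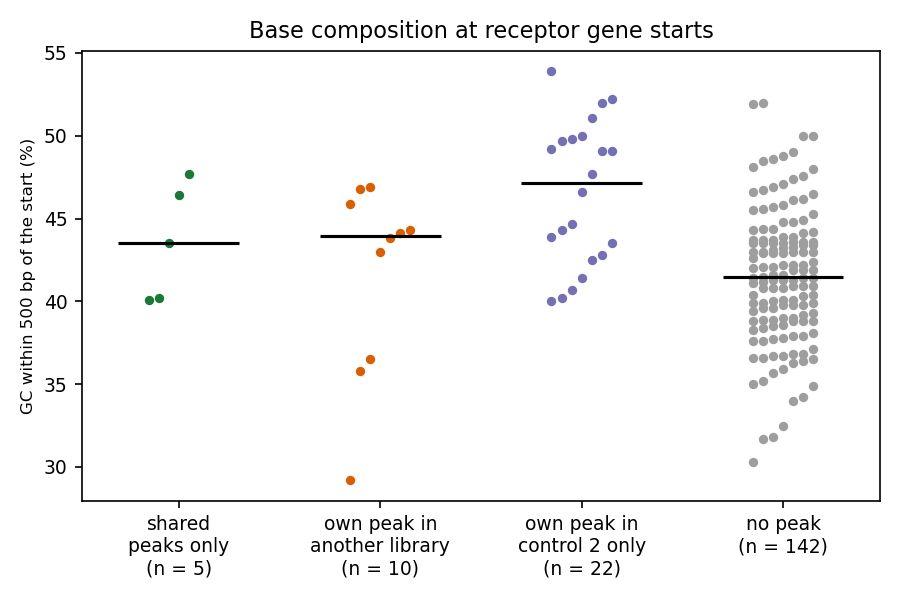
GC content over 1001 bp around the start (vertical axis) of each receptor gene, by the peaks found there (horizontal axis), with black bars at the medians. The genes with an own peak in control 2 alone have a median of 47.2%, against 41.5% at the 142 genes without a peak, and the groups overlap widely.

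Distance to other genes was set beside these classes. A shared peak must hold an outside start and reach to within 500 bp of the receptor gene, so a short distance in that class follows from its definition. The nearest protein-coding start outside the set lay at a median of 365 bp for the 5 genes with shared peaks only, 1606 bp for the 10 with an own peak in another library, 4791 bp for the 22 marked in control 2 alone and 4569 bp for the 142 without a peak. Over all receptor genes it lay at 4296 bp, against 1409 bp for other protein-coding genes. Within 500 bp of such a start, 6 of 12 receptor genes had a peak in all 4 libraries and 9 had one in any. At 500 to 1000 bp these were 1 and 2 of 11 genes, at 1000 to 2000 bp 0 and 4 of 22, and at 2000 to 5000 bp 2 and 10 of 59. Beyond 5000 bp, 0 of 75 had a peak in all 4 libraries and 12 had one in any, 10 of them in control 2 alone. Over all protein-coding genes, at any distance, the shares were 48.3% in all 4 libraries and 65.5% in any. The counts within 500 bp of an outside start were near these shares. Peaks at other genes were not counted by distance.

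**Figure D5:**
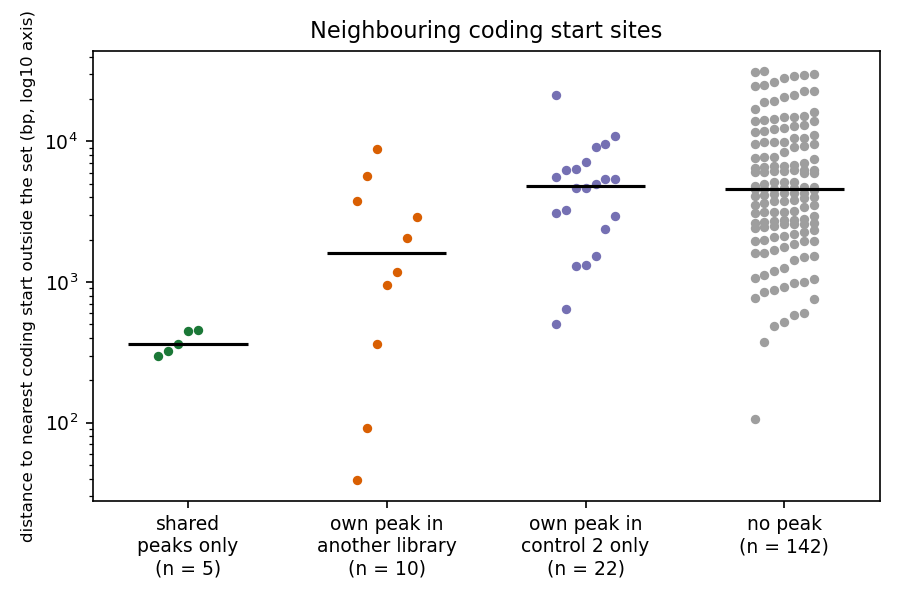
Distance from each receptor gene to the nearest protein-coding start outside the set (vertical log10 axis, bp), by the peaks found at the receptor gene (horizontal axis), with black bars at the medians. All 5 genes with shared peaks only lie below 500 bp, as the definition of a shared peak favours, and the median is 4791 bp for genes marked in control 2 alone and 4569 bp for those without a peak.

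Peaks in the body of a receptor gene were then counted where no start-site peak was found. Of the 142 such receptor genes, 3 (2.11%) and 4 (2.82%) had one in lid KD, against 4 (2.82%) and 21 (14.8%) in the controls. Over all protein-coding genes without a start-site peak these shares were 7.37% and 8.56% in lid KD, against 7.79% and 27.3% in the controls, so the longer list of control 2 marked more gene bodies in both sets. Gene length was not taken into account. At the 142 genes without a start-site peak, the nearest peak lay at a median of 13189.5 and 11385.5 bp from the gene's start in lid KD, against 13740.5 and 3946.5 bp in the controls. For the 4672 other protein-coding genes without a start-site peak these medians were 9094.5 and 7747 bp in lid KD, and 7794 and 2325.5 bp in the controls. Receptor genes often lie in clusters, and 71 of them fell into 25 groups in which the 5′ ends of neighbouring genes were at most 5000 bp apart. Of these 71 genes 10 (14.1%) had a peak in any library, against 20.7% of all receptor genes and 65.5% of all protein-coding genes. The largest group, the 6 sugar receptor genes Gr64a to Gr64f, had none. A receptor gene lay within the span of another protein-coding gene in 25 cases, 17 of them without a peak.

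By function, the receptor genes with well-known roles were too few in each class to set one class apart, and are given beside the 20.7% of all receptor genes, and 65.5% of all genes, with a peak in any library. Of the 4 co-receptors of the ionotropic family 1 had a peak. Ir8a, the co-receptor for acids, Ir25a, the most widely used, and Ir93a, which serves temperature and humidity sensing, had no peak. Ir76b, which serves the sensing of amines and salt, had one in control 2 alone, at 1.84. Of the carbon dioxide receptor pair, Gr63a shared the peak of Lamtor4, and its partner Gr21a had a peak in control 2 alone, at 1.48 and a rank of 3.09. Of 9 sugar receptor genes, Gr61a had the peak at JMJD5, Gr5a, the trehalose receptor gene, had one in control 2 alone, at 2.25, and the other 7 had none. Of 5 bitter receptor genes Gr32a was marked, and Gr33a, Gr66a, Gr39a and Gr89a were not. None of 4 receptors of temperature and humidity (Gr28b, Ir21a, Ir40a and Ir68a) had a peak. Of 6 odorant receptors of well-known ligands, Or42b, a receptor for fruit esters, had one in control 2 alone, at 2.09. The other 5 had none, namely Or47b, Or56a, the receptor for geosmin, Or67d, Or22a and Or85a.

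Other genes of the chemosensory pathway were counted in the same way. Of 13 genes chosen for roles in receptor function or choice, 2 and 4 had a start-site peak in lid KD, against 2 and 6 in the controls. A peak in any library was found at 6 of them (46.2%), against 65.5% of all genes, and 7 had none. The 2 marked in all 4 libraries were pdm3, a POU-domain factor of receptor choice, and ppk29, a channel subunit of pheromone-sensing neurons. At pdm3 the fold enrichment was 2.32 and 2.15 in lid KD, against 1.77 and 3.0 in the controls, and at ppk29 it was 2.18 and 2.14 in lid KD, against 1.45 and 2.34 in the controls. The proneural genes amos and ato had a peak in lid KD 2 and in control 2. Orco and acj6, another POU-domain factor, had one in control 2 alone, each at 1.88. Of 51 odorant-binding protein genes, 2 and 1 had a peak in lid KD, against 3 and 13 in the controls, and 0 had one in all 4 libraries. In any library it was 14 of the 51 (27.5%).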

How the data were processed

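H3K4me3 ChIP-seq peak lists of 4 ovary libraries, 2 lid KD and 2 control, were analysed, and sample titles gave the groups and replicate numbers. Reads in pairs were aligned by the authors to dm6 with Bowtie2 2.3.3, unique alignments were kept, duplicates were removed with Picard 2.17.10 and peaks were called in each library with MACS2 2.1.1 at a q-value of 0.1. Whether an input served as background is not given in the sources used here. The unique-alignment filter can remove peaks at near-identical gene copies. Per peak, the deposited files give the position, the fold enrichment as a ratio within the library, and the -log10 of the p-value and of the q-value at the summit. The score column was not used.

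Start sites came from Ensembl release 115 (dm6 coordinates), on arms 2L, 2R, 3L, 3R, 4 and X. Summit pileups and backgrounds were solved from the authors' fold enrichment, (pileup + 1)/(background + 1), and their Poisson p-value. The equations had no solution for 5 to 7 peaks of each list. On simulated data the solver recovered 100% of 3000 pileups, and the overlap step 100% of 200 calls. The simulated pileups were made with the same formulas, so their recovery checks the arithmetic and not whether the deposited values follow the formulas. The same-numbered libraries were not paired, since their deviations correlated by only 0.0885 over 8883 regions. Counts of genes were compared by exact two-sided permutation over libraries, and shares and strengths were described. Named genes were those with an own peak in all 4 libraries or in both libraries of one group alone, the 5 with the highest mean rank, and fixed lists by function. Other marked genes were added after their values were seen. The members, lists and tests were chosen with earlier results of these data known. Alternatives were the 5′ end alone, windows of 250 and 1000 bp, a q-value of 0.01, lists of equal length (12087 peaks), other definitions of an outside start, each library left out, a replicate block and the lid KD pair as 1 sample. Python 3.11.15, numpy 2.4.6, scipy 1.17.1 and pandas 2.3.3 were used.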

Additional observations from a re-analysis of the deposited data

How the results depend on the processing

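The mean number of receptor genes with a start-site peak was lower in lid KD under every alternative run. The differences ran from -18 in a window of 1000 bp to -3.5 in lists of equal length. They ran from -22.5 to -1.5 when 1 library was left out. The number with an own peak kept its direction under the other alternatives but turned to 1.5 without control replicate 2, with a range of -21.5 to 1.5 over the libraries left out. With the replicate block these differences stayed at -12 (exact permutation p = 0.5) and -10 (exact permutation p = 1), and the block changed no call. The share of receptor genes with a peak, set against other genes, was -43.5 percentage points with the 5′ end of the gene alone. The log2 enrichment of own over shared peaks was -1.61 with a window of 250 bp, -1.58 when an outside start within 500 bp of a peak made it shared, and -1.48 with an enrichment of at least 2 in every list, an alternative chosen after seeing the data, as were the nearer summit and the omission of transposable elements. With that enrichment, start-site peaks were found at 7 and 7 receptor genes in lid KD and at 8 and 22 in the controls. For the 11 genes with an own peak that the text names by rule, whether the peak was found in all, some or none of the libraries held in 131 of these values, with Ir76a without control replicate 1 (some to all) counted among them, and changed in 23. The causes were not tested. With 4 libraries, or with the lid KD pair counted as 1 sample, no comparison of the groups can pass a threshold of 0.05. The lists hold no read totals, so the depth behind a missing peak is known only through the background.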
